A study of Homo sapiens with 12 samples.

Results

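The 9 genes described here encode the parts of the MHC class I pathway: HLA-B, HLA-C, HLA-E and HLA-F, which are class I heavy chains, B2M, the light chain that every class I molecule needs, TAP1, TAP2 and TAPBP, which load peptide, and NLRC5, the transactivator of class I genes. They were taken by gene name, with no threshold on a measured value but with earlier results of these data known, and they are 9 of the 56638 gene symbols counted. All 9 passed the filter on low counts that left 16080 genes for testing, with at least 55 counts in every library. The class I heavy-chain genes outside this list were not analysed here as members.

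MHC class I molecules are built in the endoplasmic reticulum from a heavy chain and β2-microglobulin, the product of B2M. Peptides made by the proteasome in the cytosol are pumped into the endoplasmic reticulum by a transporter that TAP1 and TAP2 form together, and tapasin, the product of TAPBP, holds empty class I molecules at that transporter. Loaded molecules travel to the cell surface, where CD8 T cells and natural killer cells read them. Interferons raise the whole set, partly through NLRC5, and melanomas are known for lowering it to escape T cells.

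RNA of 501Mel cells, an established human melanoma line with an activating BRAF mutation, was sequenced after 48 h in 6 groups of 2 libraries. The groups were vehicle (DMSO), 1 µM vemurafenib (Vem, a BRAF inhibitor), 10 nM TCDD (an agonist of the aryl hydrocarbon receptor, AhR), 5 µM resveratrol (RSV, which the study used as an AhR antagonist), RSV+Vem and RSV+TCDD. For RSV+TCDD the treatment protocol gives 10 nM TCDD and the sample labels give 1 nM, so the dose of TCDD in that group is uncertain. All groups are the same line, nothing in the labels says that the libraries of a group came from separate cultures, and p-values measure only the spread between those libraries, which may be technical.

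Counts on genes ranged from 8378655 to 25076925 per library, RIN values from 8.6 to 9.7, and a library of RSV+Vem was both the shallowest and the one with the lowest RIN. All 8 melanocytic markers were expressed, with summed levels between 11162 and 51561 CPM. Of 10 leukocyte markers 3 passed the filter, the whole list summed to between 0.487 and 5.46 CPM, NKG7 was at 0 in every library and no marker exceeded 49 counts. Of 8 fibroblast and endothelial markers 3 passed, PECAM1 was at 0, and the list summed to between 7.61 and 39.6 CPM. Levels below are CPM, that is counts scaled to library size with edgeR's TMM factors, and changes are log2 fold changes from one edgeR quasi-likelihood model of all 12 libraries, called at a Benjamini-Hochberg adjusted p below 0.05 over the 16080 genes. TMM sets the typical gene to no change, so "rose" and "fell" are relative to the other genes. When libraries were scaled to the added ERCC spike-ins instead, the median of all genes came to between -1.20 and 0.15 on the log2 scale in the 11 comparisons, a move of over 0.1 in 10 of them, and some directions of the named genes turned below 0, as given with each comparison. Relative to that median no member moved by more than 0.05 between both scalings. Scaling changes 1 factor per library, so this closeness would hold for any gene and is not a sign of robustness. The HLA genes resemble each other in sequence, and the counting kept 1 primary alignment of a read pair that fitted several places. Counts can therefore be shifted from one HLA gene to another.

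Upstream sequences were available from RefSeq for 7 of the 9 genes, those other than HLA-E and NLRC5. They were taken 250 bases upstream of the RefSeq start site and matched to GRCh37, the build of the counts, with 1 exact match each. They are shown because class I genes share a conserved upstream block, the interferon element and the SXY module that NLRC5 and the RFX, CREB and NF-Y factors use. Capitals mark an interferon-type element (GAAANNGAAA or GAANNGAAA), the CREB-type site TGACGC and the CCAAT box, on either strand. The stretches leave out bases annotated as untranslated in any GENCODE transcript, and for TAP2 and TAPBP, whose element lies in such bases, 30 bases around it are given.

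The HLA heavy-chain and B2M stretches are, 5′ to 3′ on the strand of the gene, HLA-B at chr6:31325071-31325206 (minus strand), HLA-C at chr6:31239883-31240119 (minus), HLA-F at chr6:29690961-29691082 (plus) and B2M at chr15:45003522-45003706 (plus).
HLA-B: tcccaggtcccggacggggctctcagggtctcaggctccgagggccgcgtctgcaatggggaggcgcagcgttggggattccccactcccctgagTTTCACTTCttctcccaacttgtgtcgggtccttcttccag
HLA-C: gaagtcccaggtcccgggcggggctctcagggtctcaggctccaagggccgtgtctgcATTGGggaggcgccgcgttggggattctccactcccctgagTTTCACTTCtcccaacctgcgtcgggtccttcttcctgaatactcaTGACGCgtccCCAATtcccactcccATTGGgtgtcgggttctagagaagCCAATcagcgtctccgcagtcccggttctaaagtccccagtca
HLA-F: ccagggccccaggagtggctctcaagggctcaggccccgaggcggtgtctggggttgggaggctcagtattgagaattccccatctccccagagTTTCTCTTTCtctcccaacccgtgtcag
B2M: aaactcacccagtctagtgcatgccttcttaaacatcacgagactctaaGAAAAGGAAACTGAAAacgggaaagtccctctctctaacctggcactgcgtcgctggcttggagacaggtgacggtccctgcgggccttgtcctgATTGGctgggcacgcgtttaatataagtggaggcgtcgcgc

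The peptide loading stretches are TAP1 at chr6:32821594-32821731, TAP2 at chr6:32806558-32806587 and TAPBP at chr6:33281856-33281885, all on the minus strand.
TAP1: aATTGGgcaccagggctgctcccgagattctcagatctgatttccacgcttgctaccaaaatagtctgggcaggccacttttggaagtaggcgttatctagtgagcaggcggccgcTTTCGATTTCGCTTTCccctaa
TAP2: tggctgggGAAGCGAAAGCGAAAgctgccc
TAPBP: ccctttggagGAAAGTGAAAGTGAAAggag

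The HLA-B and HLA-C windows of 250 bases were 89.0% identical, HLA-B and HLA-F 79.8%, and HLA-C and HLA-F 78.2%. All 7 genes held an interferon-type element, in 7 of their 8 windows, against 9.08% of the 35116 RefSeq promoter windows of the same length. The window without the element was another window of TAP1, which is not shown. In HLA-B and HLA-C the element read TTTCACTTC and ended 147 and 143 bases before the start site. B2M, TAP1, TAP2 and TAPBP each held a pair of overlapping elements. TGACGC stood in the windows of HLA-B, HLA-C and TAP2 and in 7.67% of all windows. CCAAT occurred in the windows of HLA-B, HLA-C, HLA-F, B2M and TAP1 and in 32% of all windows. The kappa B pattern GGGNNTTNCC was found for HLA-B, B2M, TAP1 and TAPBP and in 5.07% of all windows. The AhR core GCGTG was found for HLA-B, HLA-F, B2M and TAP1 and in 32.2% of all windows. The patterns were searched on both strands and chosen with these sequences in view, and a match is a description of letters, not a bound site.

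**Figure D1:**
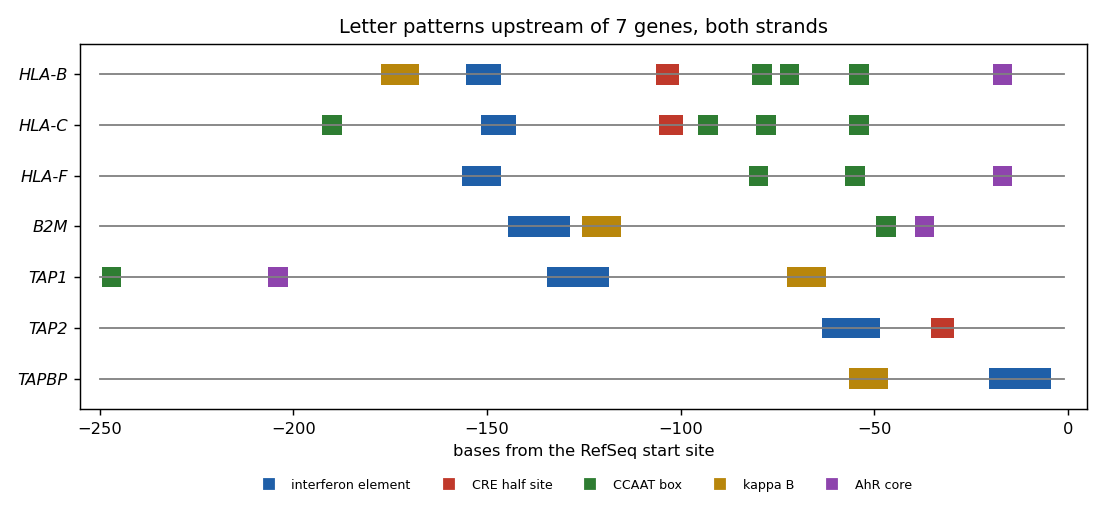
Letter patterns in the 250 bases upstream of the RefSeq start site of 7 genes, with the distance to the start site in bases on the x axis and 1 line per gene. Blue boxes mark interferon-type elements, which sit between 156 and 143 bases upstream in HLA-B, HLA-C and HLA-F and between 20 and 5 bases upstream in TAPBP.

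HLA-B (chr6:31321649-31334844, minus strand, 8 exons) encodes a classical heavy chain that presents peptides to CD8 T cells. Its levels were 25.9 and 21.8 CPM with vehicle, 25.7 and 26.3 with Vem, 43.1 and 43.6 with TCDD, 54.9 and 45.1 after RSV, 52.8 and 47.9 after RSV+Vem, and 67.5 and 64.8 after RSV+TCDD. The Vem libraries lay beside the vehicle libraries, whereas TCDD, RSV and both combinations stood above them without overlap. Separation from vehicle, here and for the genes below, was common: 75.9% of all tested genes did not overlap it with Vem and 52.4% with TCDD. The shares were 67.9% with RSV, 72.6% with RSV+Vem and 71.0% with RSV+TCDD. HLA-B had the widest range of the members, its highest group being 2.77 times its lowest.

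HLA-C (chr6:31236526-31239907, minus strand, 8 exons) is the second classical heavy chain and also a ligand of inhibitory receptors on natural killer cells. It was measured at 70.8 and 65.0 CPM with vehicle, 86.4 and 97.0 with Vem, 84.9 and 87.4 with TCDD, 111 and 88.9 with RSV, 98.3 and 91.1 with RSV+Vem, and 105 and 99.6 with RSV+TCDD. Every treated library was above both vehicle libraries, and from the RSV+TCDD group down to TCDD each group overlapped the next in the order of means.

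HLA-E (chr6:30457286-30461971, plus strand, 8 exons) is a non-classical heavy chain that shows leader peptides of other class I chains to the NKG2A receptor. It gave 86.2 and 81.7 CPM with vehicle, 111 and 108 with TCDD, 129.6 and 146 with Vem, 163 and 167 with RSV+Vem, 181 and 161 with RSV, and 172 and 177 with RSV+TCDD. The 3 groups with RSV overlapped or adjoined each other, and below them Vem, TCDD and vehicle were separate steps without overlap.

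HLA-F (chr6:29690552-29706305, plus strand, 7 exons), a non-classical chain, had another order. Its levels were 16.4 and 19.5 CPM with vehicle, 19.0 and 16.3 with RSV+Vem, 21.8 and 17.2 with RSV, 23.6 and 25.7 with Vem, 27.3 and 26.4 with RSV+TCDD, and 29.2 and 31.9 with TCDD. It was highest with TCDD, and the RSV and RSV+Vem libraries overlapped vehicle.

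B2M (chr15:45003556-45011049, plus strand, 4 exons) was the most abundant member per kilobase of transcript. It was counted at 285 and 264 CPM with vehicle, 266 and 277 with Vem, 340.4 and 308 with TCDD, 351 and 397 with RSV, 372 and 369.6 with RSV+Vem, and 354 and 422 with RSV+TCDD. The 3 groups with RSV overlapped each other and lay above TCDD, which lay above vehicle and Vem.

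TAP1 (chr6:32812986-32821593, minus strand, 11 exons) and TAP2 (chr6:32789610-32806516, minus strand, 12 exons) encode both chains of one transporter. TAP1 was at 23.1 and 24.7 CPM with vehicle, 24.4 and 22.3 with RSV, 27.3 and 25.3 with TCDD, 31.1 and 30.2 with RSV+TCDD, 30.5 and 31.5 with RSV+Vem, and 30.1 and 32.9 with Vem. TAP2 was at 52.6 and 61.3 CPM with vehicle, 54.7 and 59.9 with Vem, 55.6 and 60.8 with TCDD, 52.9 and 45.8 after RSV, 43.3 and 42.6 after RSV+TCDD, and 37.6 and 39.8 with RSV+Vem. With RSV+Vem and with RSV+TCDD, TAP1 was above and TAP2 below every vehicle library.

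TAPBP (chr6:33267471-33282061, minus strand, 8 exons) was at 52.1 and 52.6 CPM with vehicle, 55.2 and 54.7 with TCDD, 57.7 and 57.3 after RSV, 61.6 and 59.4 after RSV+TCDD, 61.2 and 71.9 with RSV+Vem, and 88.5 and 87.8 with Vem. Vem stood above every other library, and the libraries of RSV+Vem differed from each other more than those of the other groups. NLRC5 (chr16:57023397-57117443, plus strand, 49 exons) was the least abundant, at 2.99 and 5.26 CPM with vehicle, 4.38 and 4.04 with TCDD, 6.88 and 7.22 with Vem, 7.91 and 7.59 with RSV+TCDD, 9.89 and 6.41 with RSV, and 9.15 and 9.0 with RSV+Vem. Its TCDD libraries lay inside the vehicle range, and all others were above it.

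**Figure D2:**
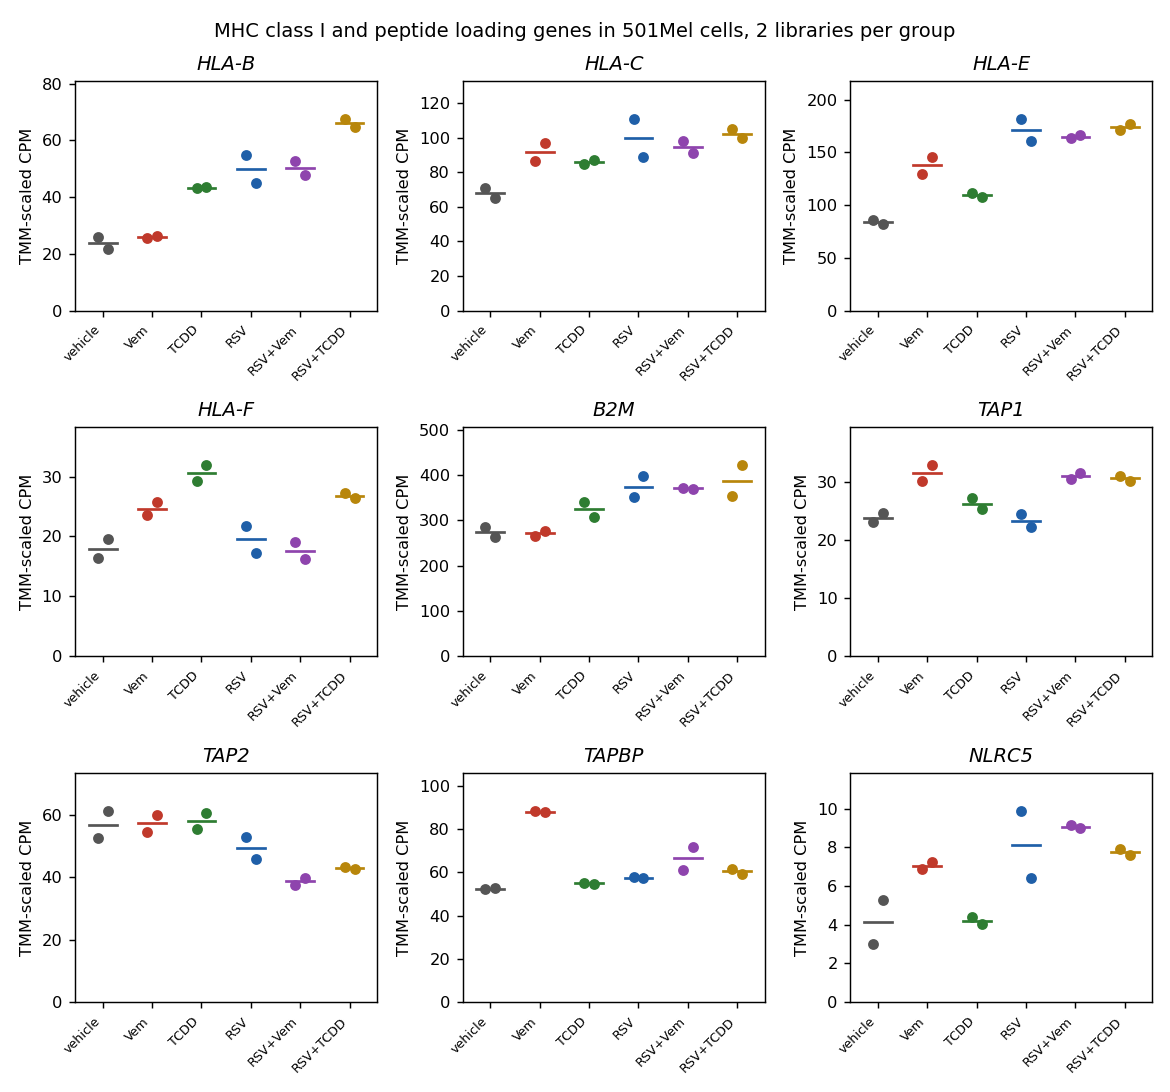
TMM-scaled CPM of the 9 genes on the y axis of each panel, from 0, in the 6 treatment groups, with 1 point per library and a line at the group mean of 2. HLA-B rises in steps to 64.8 and 67.5 CPM with RSV+TCDD, TAPBP peaks with Vem at 88.5 and 87.8 CPM, and TAP2 is lowest with RSV+Vem at 37.6 and 39.8 CPM.

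Per kilobase of the canonical transcript, the mean level with vehicle was 291 ± 15.9 (SD, n = 2) CPM for B2M, 44 ± 2.63 for HLA-C and 32.9 ± 1.25 for HLA-E. It was 15.5 ± 1.87 for HLA-B, 15.2 ± 0.104 for TAPBP and 12.1 ± 1.46 for HLA-F. TAP2 and TAP1 were close, at 10.1 ± 1.1 and 8.89 ± 0.422, and NLRC5 was at 0.608 ± 0.237. The light chain was thus above each heavy chain of the list. TAP1 was above TAP2 per kilobase with RSV+Vem (11.5 ± 0.263 and 6.86 ± 0.275), with RSV+TCDD (11.4 ± 0.241 and 7.62 ± 0.0871) and with Vem (11.7 ± 0.732 and 10.2 ± 0.662). TAP2 shares its strand with an overlapping annotated gene, TAP1 lies opposite PSMB9, HLA-F opposite HLA-F-AS1 and HLA-B on the same strand as the pseudogene DHFRP2. Counting was by strand, so reads of genes on opposite strands are kept apart as far as the strand setting was right, whereas read pairs that fit overlapping genes of one strand are by default counted for neither. The setting stated is that for forward reads, which is not the usual one for the kit. Of 753 genes listed with an antisense partner, 649 had more counts than the partner, but HLA-F-AS1, with 4942 counts over all libraries, was level with HLA-F, with 4852, and whether reads moved between them was not tested.

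Vem was compared with vehicle to ask what the BRAF inhibitor changed. Of the 9 genes 6 rose and none fell, where 52.4% of all tested genes were called, 25.4% higher and 27.0% lower. The median change was 0.43 for the members and -0.03 for all genes. TAPBP rose by 0.75 ± 0.10 (SE) on the log2 scale (adjusted p = 8.57e-06, edgeR), HLA-E by 0.71 ± 0.09 (adjusted p = 8.45e-06) and NLRC5 by 0.75 ± 0.24 (adjusted p = 0.0161). HLA-F rose by 0.45 ± 0.14, HLA-C by 0.43 ± 0.11 and TAP1 by 0.40 ± 0.11. HLA-B (0.13, 95% interval -0.14 to 0.39), B2M (-0.02, -0.23 to 0.19) and TAP2 (0.01, -0.23 to 0.24) were not called. Without Vem replicate 2 only 2 members were called, HLA-E and TAPBP, and without vehicle replicate 1 or Vem replicate 1 NLRC5 was not called, nor HLA-F in the former. Under spike-in scaling none was called, and HLA-C, HLA-F and TAP1 lay below 0. Melanocytic markers summed to between 48216 and 51561 CPM with Vem and between 19414 and 20506 with vehicle, and their part in these values was not tested.

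TCDD was compared with the same vehicle libraries for the AhR agonist. HLA-B rose by 0.86 ± 0.12 on the log2 scale, a fold of 1.82 (adjusted p = 0.000519, edgeR). HLA-F rose by 0.76 ± 0.14 (adjusted p = 0.00314) and HLA-E by 0.39 ± 0.09 (adjusted p = 0.0205). No other member was called: 3 of 9 rose and none fell, against 6.41% of all genes called, 4.50% higher and 1.90% lower. HLA-C was at 0.34 (adjusted p = 0.0749, edgeR) and B2M at 0.24 (adjusted p = 0.168). TAP1, TAP2, TAPBP and NLRC5 had estimates between 0.02 and 0.14, the interval for NLRC5 reaching from -0.52 to 0.55. The call of HLA-E was lost without vehicle replicate 2 (adjusted p = 0.109, edgeR) and without either TCDD library. Spike-in scaling left no call, and put HLA-E below 0. Fibroblast and endothelial markers summed to between 31.9 and 39.6 CPM with TCDD against 13.0 to 16.4 with vehicle. Of the 3 of them that were tested, 1 was called higher and 2 were not called. Their median was -0.93 on the log2 scale, so the higher sum does not stand for the list. Melanocytic markers summed to between 26281 and 27220 CPM with TCDD. The part of both lists was not tested.

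RSV alone raised HLA-B by 1.07 ± 0.12 on the log2 scale (2.10-fold, adjusted p = 6.61e-06, edgeR) and HLA-E by 1.03 ± 0.09 (2.04-fold, adjusted p = 8.51e-07). NLRC5 rose by 0.95 ± 0.23 (adjusted p = 0.00414), HLA-C by 0.56 ± 0.11 (adjusted p = 0.000878) and B2M by 0.45 ± 0.10 (adjusted p = 0.00197). Thus 5 of 9 rose and none fell, where 40.9% of all genes were called, 20.5% higher and 20.4% lower, and the members' median was 0.45 against 0.00 for all genes. The peptide loading genes and HLA-F were not called, with TAP2 at -0.21 (95% interval -0.45 to 0.03), TAP1 at -0.03 (-0.27 to 0.20), TAPBP at 0.13 (-0.07 to 0.34) and HLA-F at 0.11 (-0.18 to 0.41). The NLRC5 call was lost without RSV replicate 1 (adjusted p = 0.0854, edgeR). Under spike-in scaling the 5 genes kept values above 0 and none was called. Leukocyte markers summed to between 4.34 and 5.46 CPM with RSV and between 0.526 and 0.911 with vehicle. The 3 of them that were tested were called higher. With such low sums in vehicle, they passed the filter through groups where they are higher, so these calls carry no weight. NKG7 was at 0 in both groups. Melanocytic markers were lower with RSV, at 11162 to 12361 CPM against 19414 to 20506, and 7 of the 8 were called lower. The part of both lists was not tested.

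The single treatments share the vehicle libraries, so the values are set side by side and their likeness is not a result. HLA-E was called with each of the 3, at 0.71, 0.39 and 1.03 for Vem, TCDD and RSV. HLA-B was called with TCDD and RSV at 0.86 and 1.07, and NLRC5 with Vem and RSV at 0.75 and 0.95. HLA-F was called with Vem and TCDD at 0.45 and 0.76. TAP2 was called with none of them.

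**Figure D3:**
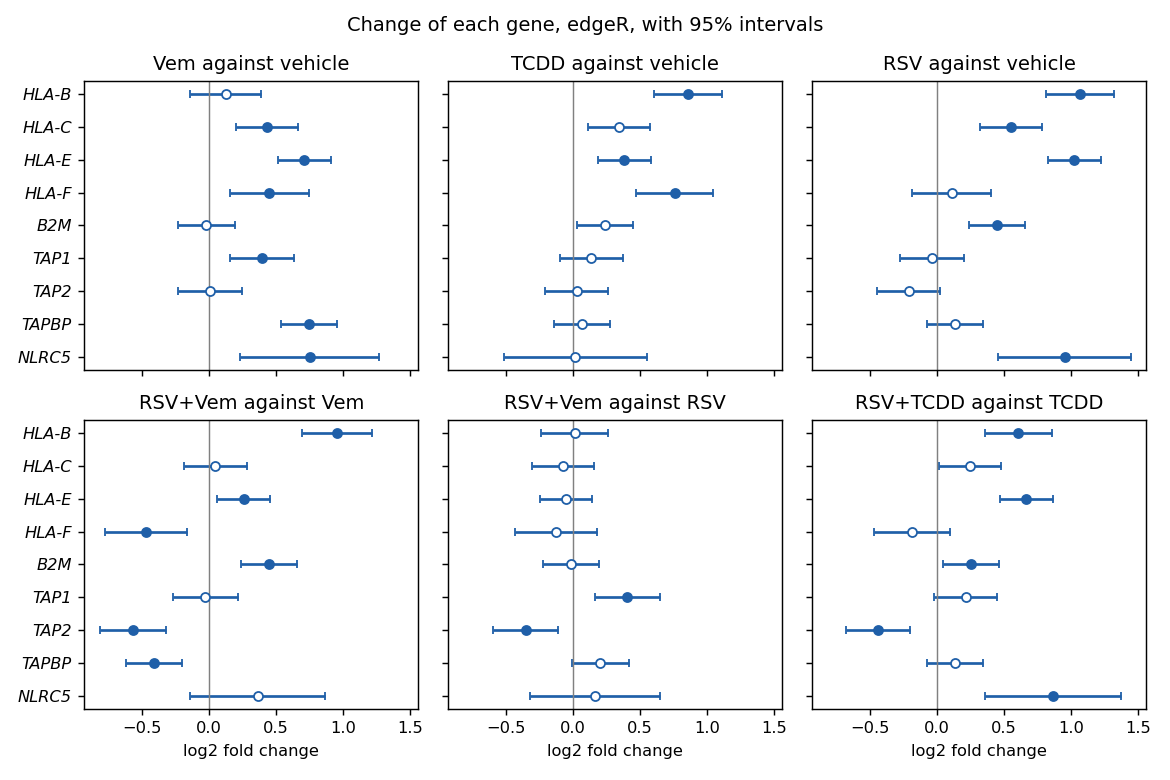
Log2 fold change of the 9 genes on the x axis with 95% intervals from edgeR in 6 comparisons, filled points being called at an adjusted p below 0.05. HLA-B is called in each RSV comparison with its own control, and TAP2 is called lower where RSV was combined with Vem or TCDD. Spike-in scaling moves the points of a panel together, by the shift of the median gene.

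RSV added to Vem was compared with Vem alone. HLA-B rose by 0.96 ± 0.12 (adjusted p = 1.88e-05, edgeR), B2M by 0.45 ± 0.10 (adjusted p = 0.00197) and HLA-E by 0.26 ± 0.09 (adjusted p = 0.0356). TAP2 fell by 0.57 ± 0.12 (adjusted p = 0.00109), HLA-F by 0.47 ± 0.14 (adjusted p = 0.0179) and TAPBP by 0.41 ± 0.10 (adjusted p = 0.00376). With 3 members higher and 3 lower, the list split, against 37.9% of all genes called, 19.2% higher and 18.7% lower. HLA-C stood at 0.05 (95% interval -0.19 to 0.28), TAP1 at -0.03 (-0.27 to 0.22) and NLRC5 at 0.37 (-0.14 to 0.87). HLA-E was not called by DESeq2 (adjusted p = 0.0529), nor without Vem replicate 1 or either RSV+Vem library. HLA-F was not called without Vem replicate 2 (adjusted p = 0.117, edgeR) or RSV+Vem replicate 2 (0.121), nor TAPBP without RSV+Vem replicate 1 (0.0818). No direction changed under spike-in scaling, which left no call. Melanocytic markers summed to between 19683 and 21060 CPM with RSV+Vem against 48216 to 51561 with Vem, and leukocyte markers to between 1.60 and 2.81 against 0.487 to 0.768. RIN values were 8.7 and 8.6 with RSV+Vem and 9.2 and 9.7 with Vem, and the part of markers and RIN was not tested.

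Against RSV alone, RSV+Vem changed 2 of the 9 genes, against 24.4% of all genes, 11.2% higher and 13.1% lower. TAP1 rose by 0.41 ± 0.11 (adjusted p = 0.0159, edgeR) and TAP2 fell by 0.35 ± 0.12 (adjusted p = 0.0357), so the genes of the transporter moved in opposite directions. HLA-B, HLA-C, HLA-E and B2M had estimates between -0.07 and 0.02. Neither call held without RSV+Vem replicate 1 or 2, where 0 members were called, nor with a model of only the libraries compared, that of TAP1 was lost without RSV replicate 2 and that of TAP2 without RSV replicate 1, and TAP1 lay at -0.13 under spike-in scaling. Against vehicle, RSV+Vem raised 7 members and lowered 1, TAP2, where 48.9% of all genes were called, 24.1% higher and 24.8% lower. NLRC5 rose by 1.12 ± 0.24 (adjusted p = 0.0011, edgeR), its largest change, HLA-B by 1.08 ± 0.12 and HLA-E by 0.97 ± 0.09. HLA-C, B2M, TAP1 and TAPBP rose by between 0.34 and 0.48, TAP2 fell by 0.56 ± 0.11 (adjusted p = 0.00077), and HLA-F was at -0.02 (95% interval -0.32 to 0.29). The TAP1 call was lost without vehicle replicate 1 or either RSV+Vem library, and that of TAPBP without RSV+Vem replicate 2. Of the 7 genes that rose, HLA-C, B2M, TAP1 and TAPBP lay below 0 under spike-in scaling. The RSV+Vem libraries had the lowest RIN values of the study, and their part was not tested.

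RSV added to TCDD was compared with TCDD alone, with the doubt about the TCDD dose given above. NLRC5 rose by 0.87 ± 0.24 (adjusted p = 0.00929, edgeR), HLA-E by 0.67 ± 0.09 (adjusted p = 5.12e-05), HLA-B by 0.61 ± 0.12 (adjusted p = 0.000761) and B2M by 0.26 ± 0.10 (adjusted p = 0.0491). TAP2 fell by 0.44 ± 0.11 (adjusted p = 0.00629). These 5 of 9 stand against 37.7% of all genes, 18.6% higher and 19.1% lower. HLA-C was at 0.25 (adjusted p = 0.0838, edgeR) and HLA-F at -0.19 (95% interval -0.47 to 0.10). Only 2 members, HLA-B and HLA-E, were called without TCDD replicate 2. The calls of NLRC5 and B2M were lost without TCDD replicate 1, and that of B2M without RSV+TCDD replicate 2 and, with the replicate number as a block, at an adjusted p of 0.0511 (edgeR). Melanocytic markers summed to between 16546 and 17466 CPM with RSV+TCDD against 26281 to 27220 with TCDD, and their part was not tested. Under spike-in scaling no member was called and HLA-E, HLA-B and B2M lay below 0.

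Against RSV alone, RSV+TCDD changed 1 member, TAP1 (0.39 ± 0.11, adjusted p = 0.0499, edgeR), where 5.70% of all genes were called, 3.61% higher and 2.08% lower. HLA-B (0.40, adjusted p = 0.0511, edgeR) and HLA-F (0.46, adjusted p = 0.0575) were just outside the threshold, DESeq2 called HLA-B (adjusted p = 0.0342) in place of TAP1 (0.0509), the replicate block made the same exchange (0.0351 and 0.0517), and TAP1 was not called without any 1 of the 4 libraries. Under spike-in scaling TAP1 lay at -0.63. Against vehicle, RSV+TCDD raised 7 members and lowered TAP2, where 43.8% of all genes were called, 22.3% higher and 21.6% lower. HLA-B rose by 1.47 ± 0.12 (2.77-fold, adjusted p = 2.51e-07, edgeR), the largest change of any member, HLA-E by 1.05 ± 0.09, NLRC5 by 0.89 ± 0.23, HLA-C by 0.59 ± 0.11 and HLA-F by 0.57 ± 0.14. B2M rose by 0.50 ± 0.10 and TAP1 by 0.36 ± 0.11, TAP2 fell by 0.41 ± 0.11, and TAPBP was at 0.21 (adjusted p = 0.0971). HLA-B was the only 1 of the 7 to stay above 0 under spike-in scaling, where the median of all genes was -1.20. The TAP1 call was lost without vehicle replicate 1 or RSV+TCDD replicate 1, that of NLRC5 without vehicle replicate 1 and that of TAP2 without vehicle replicate 2. Control sequences held 0.0630% and 0.0936% of the RSV+TCDD counts and 0.0316% and 0.0310% of the vehicle counts.

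An interaction tested whether the effect of Vem differed with RSV present, which is also whether the effect of RSV differed with Vem present. It was negative and called for 4 of the 9 genes, against 22.7% of all genes, 12.0% positive and 10.7% negative, and the members' median was -0.51 against 0.02 for all genes. HLA-E gave -0.77 ± 0.13 (adjusted p = 0.000679, edgeR): its change with Vem was 0.71 without RSV and -0.05 with RSV. For TAPBP, at -0.54 ± 0.14 (adjusted p = 0.0106), the same values were 0.75 and 0.21. HLA-F had -0.58 ± 0.20 (adjusted p = 0.0482), from 0.45 to -0.13, and HLA-C -0.51 ± 0.16 (adjusted p = 0.0283), from 0.43 to -0.07. HLA-B (-0.11, 95% interval -0.47 to 0.25), B2M (0.00, -0.29 to 0.30) and TAP1 (0.01, -0.33 to 0.35) had no call, nor did TAP2 (-0.36) and NLRC5 (-0.59, -1.30 to 0.12). With the replicate number as a block the HLA-F interaction was not called (adjusted p = 0.0526, edgeR), and 2 members, HLA-E and TAPBP, were called without Vem replicate 2, without RSV replicate 1 or without RSV+Vem replicate 2. The HLA-C call was also lost without vehicle replicate 2, that of HLA-F without vehicle replicate 1 or Vem replicate 1, and that of TAPBP without RSV+Vem replicate 1. Under spike-in scaling none was called. The 4 called values stayed negative.

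The interaction of RSV with TCDD was called for 0 of the 9 genes by edgeR and by DESeq2, against 0.124% of all genes, 0.00622% positive and 0.118% negative. The lowest estimates were HLA-B at -0.46 (95% interval -0.81 to -0.10) and HLA-E at -0.36 (-0.63 to -0.08), both with an adjusted p of 0.474 (edgeR). The intervals are not adjusted for the number of genes.

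**Figure D4:**
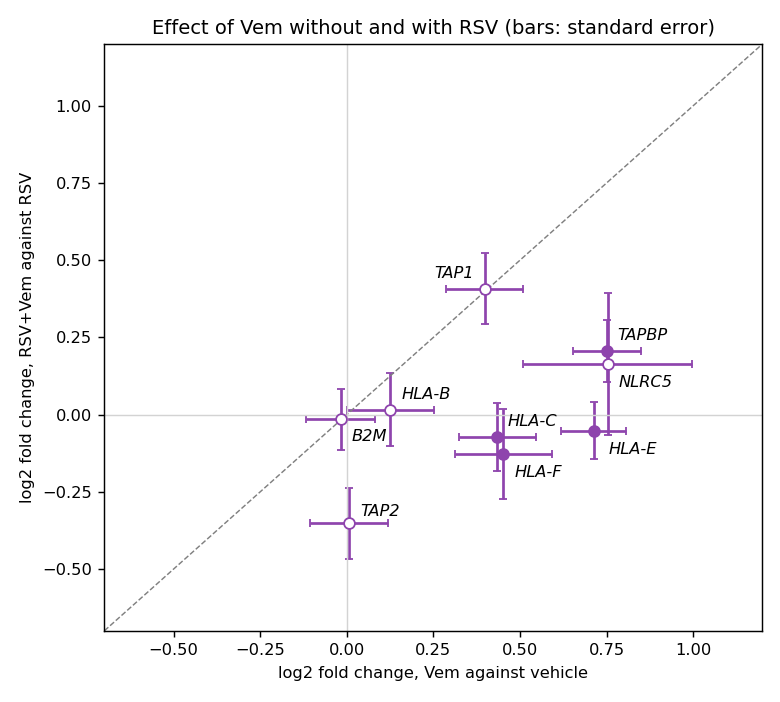
Log2 fold change of each gene with Vem in the absence of RSV (x axis) and in its presence (y axis), with standard errors. Filled points, HLA-C, HLA-E, HLA-F and TAPBP, have a called interaction and lie below the dashed line of equal effects, whereas TAP1, B2M and HLA-B lie near it.

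The pathway around the members was followed in 4 further lists. Of 10 genes that supply peptide (immunoproteasome subunits, proteasome activators and aminopeptidases), Vem raised 3 and lowered 2, where 25.4% of all genes were called higher and 27.0% lower. TCDD raised 1 (4.50% of all genes higher) and RSV lowered 2 (20.4% lower), so these counts are near the background. PSMB10, an immunoproteasome subunit, was at 1.57 and 1.38 CPM with vehicle and 5.70 and 5.53 with Vem, a rise of 1.93 ± 0.32 (adjusted p = 8.13e-05, edgeR). The aminopeptidase gene ERAP2, which trims peptides, fell by 1.27 ± 0.27 with Vem (adjusted p = 0.000967), and ERAP1 rose by 0.42 ± 0.12, a value that turned to -0.23 under spike-in scaling. PSMB9, whose gene overlaps TAP1 on the other strand, was at 5.22 and 5.15 CPM with Vem and 10.3 and 8.88 with RSV+Vem, a rise of 0.90 ± 0.18 (adjusted p = 0.00104).

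The 7 chaperones of class I folding include calreticulin (CALR), calnexin (CANX), PDIA3 and HSPA5. Vem raised CALR by 0.59 ± 0.09 (adjusted p = 3.25e-05, edgeR) and HSPA5 by 0.53 ± 0.11, which lay at -0.06 and -0.12 under spike-in scaling. UGGT1, a sensor of misfolded glycoproteins, fell by 0.28 ± 0.11 with Vem, while TCDD changed 0 of 7 (6.41% of all genes) and RSV raised 2 and lowered 1 (20.5% and 20.4%). Adding RSV to Vem lowered 6 and raised 1, against 18.7% of all genes lower and 19.2% higher, with a list median of -0.51 against 0.03 for all genes. The 1 raised, TAPBPL, held 3 and 2 counts with Vem and 20 and 6 with RSV+Vem. It is also 1 of the 2 raised by RSV. It passed the filter through the groups with RSV, where it is higher, so its calls carry no weight. CALR fell by 0.60 ± 0.09, PDIA3 by 0.57 ± 0.08 and CANX by 0.57 ± 0.11. The RSV by Vem interaction was called for 4 of 7, all negative, against 10.7% of all genes called negative, led by HSPA5 at -0.75 ± 0.16 (adjusted p = 0.00297, edgeR).

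Of 26 regulators of class I genes, Vem raised 5 and lowered 7, TCDD lowered 1, and RSV raised 4 and lowered 1. These counts are near or below the shares of all genes called with Vem (25.4% higher, 27.0% lower), TCDD (1.90% lower) and RSV (20.5% higher, 20.4% lower). IRF1, an interferon-induced activator, was at 1.57 and 2.23 CPM with vehicle, 0.765 and 1.46 with Vem, 1.31 and 1.32 with TCDD, 7.60 and 4.57 with RSV, 9.74 and 6.97 with RSV+Vem, and 6.84 and 5.47 with RSV+TCDD. The 3 groups with RSV were all above the 3 without. It rose by 1.65 ± 0.29 with RSV (adjusted p = 0.000341, edgeR), by 2.95 ± 0.34 when RSV was added to Vem, and by 2.22 when it was added to TCDD. STAT2, which carries interferon signals to the nucleus, rose by 1.13 ± 0.10 with Vem and by 1.04 ± 0.10 with RSV, and its interaction was -1.15 (adjusted p = 5.74e-05). EZH2 and SUZ12, subunits of the Polycomb complex that can silence class I genes, fell by 1.18 ± 0.11 and 1.08 ± 0.15 with Vem. The NF-Y gene NFYB also fell with Vem, by 0.94 ± 0.13, while NFYC rose by 0.95 ± 0.12 and RELA by 0.80 ± 0.10. Adding RSV to Vem raised 10 of the 26 and lowered 2, against 19.2% of all genes higher and 18.7% lower. The RSV by Vem interaction was called positive for 5 and negative for 3, against 12.0% and 10.7% of all genes. The most positive were RFXAP (1.03), NFYB (1.00) and SUZ12 (0.92), opposite in sign to that of STAT2.

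Among 12 other class I like genes, 8 of which passed the filter, RSV raised 7 and lowered none, with a median of 0.91 over those tested, where 20.5% of all genes were called higher and 20.4% lower. Vem raised 3 and lowered 2 (25.4% and 27.0% of all genes). MR1, which presents vitamin B metabolites, was at 10.5 and 6.80 CPM with vehicle and 32.8 and 36.4 with RSV, a rise of 2.01 (4.03-fold, adjusted p = 2.29e-07, edgeR). MICB, a stress ligand of the NKG2D receptor, was at 3.39 and 3.36 CPM with vehicle, 0.974 and 0.845 with Vem, 7.48 and 8.56 with RSV, and 5.27 and 5.29 with RSV+Vem. It fell by 1.88 with Vem and rose by 1.25 with RSV, and its RSV by Vem interaction was 1.27 (adjusted p = 0.0124, edgeR). That interaction was called for 4 of the 8 tested genes, against 22.7% of all genes, 12.0% positive and 10.7% negative. MICB had the only positive one, and the other 3 were negative, among them HFE at -0.91 and MR1 at -0.68.

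**Figure D5:**
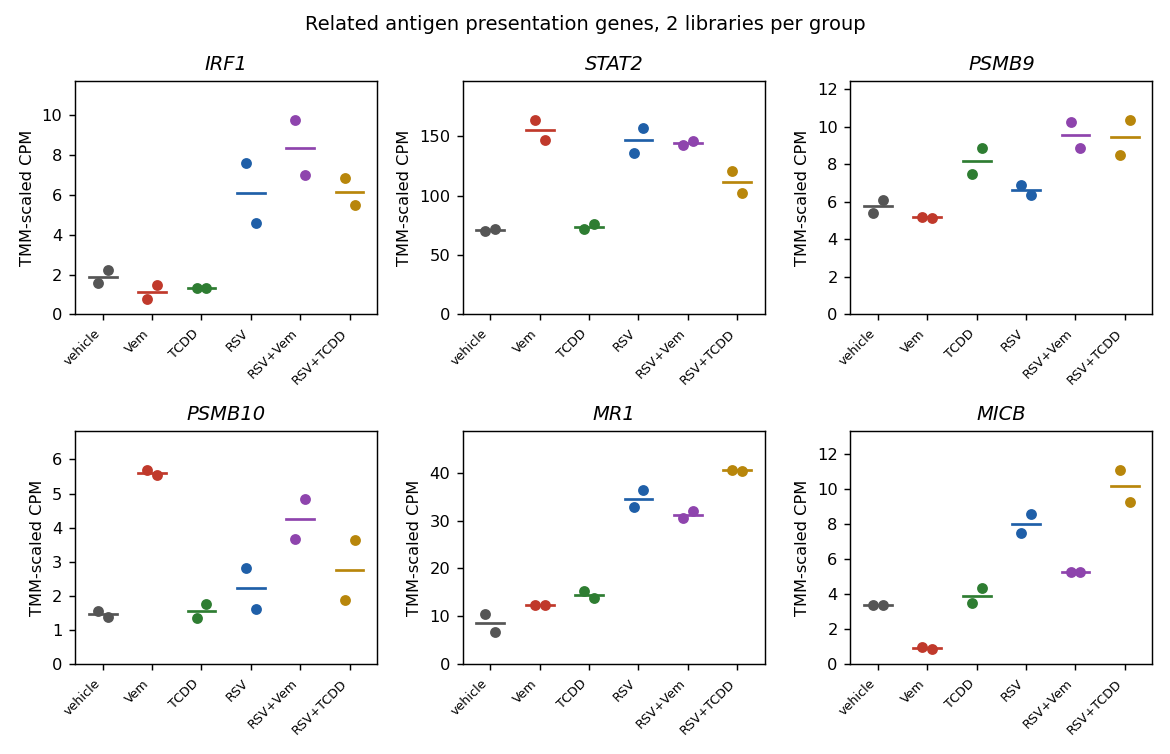
TMM-scaled CPM on the y axis, from 0, of 6 genes from the neighbouring lists in the 6 groups, with 1 point per library and a line at the mean. IRF1 and MR1 stand higher in the 3 groups with RSV, PSMB10 peaks at 5.70 and 5.53 CPM with Vem, and MICB is lowest with Vem.

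Across the 12 libraries, pairs of members were described by Pearson's r of log2 CPM, which is driven by the 6 treatments and shares library scaling. The highest were HLA-C with HLA-E (0.92), HLA-B with B2M (0.89) and HLA-E with NLRC5 (0.86), and the lowest was B2M with TAP2 (-0.78). The mean profile of the 9 genes, each centred on its own mean, was lowest with vehicle (-0.42 and -0.33) and highest with RSV+TCDD (0.22 and 0.21), and the RSV libraries were at 0.18 and -0.03. Of 11082 genes with a mean of at least 5 CPM, those most like this profile were MFGE8 (r = 0.97), AAMDC (0.97), PLEKHA4 (0.96), ZNF74 (0.96), MOCS1 (0.95), IFI6 (0.95), CCM2 (0.95) and QPRT (0.95). IFI6 is an interferon-induced gene, with a mean of 135 CPM.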

How the data were processed

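The authors prepared stranded mRNA libraries (TruSeq), sequenced paired ends, aligned them to hg19 with STAR 2.4.0a and counted primary alignments per gene symbol with featureCounts of Subread 1.5.0-p3. The values the authors deposited are raw counts per symbol, not normalized, for 56638 symbols and for 96 control sequences (ERCC spike-ins make up 92). Counting was by gene name, with the featureCounts setting for forward-strand reads.

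Groups followed the sample labels. Control sequences were removed, filterByExpr by group left 16080 genes, and all 12 libraries entered 1 quasi-likelihood fit in edgeR 4.0.16 (R 4.3.3), group by group, with TMM factors between 0.890 and 1.08. Contrasts were tested with the quasi-likelihood F test and adjusted by Benjamini-Hochberg over all tested genes. A permutation test on 1 gene could not reach 0.05 with 2 libraries against 2. The common biological coefficient of variation was 0.0915, and replicates differed by more than counting noise in every group. Intervals are 95% intervals of the model. Counts are not corrected for PCR copies, so counting error alone is a lower limit.

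The members and gene lists, the latter written from general knowledge, were chosen with earlier results of these data known. All 9 members are named. From the other lists, the text names among the called genes with at least 1 CPM in the higher group up to 3 with the largest rise and 3 with the largest fall per comparison. TAPBPL is named besides, for its low counts. Positions and canonical transcripts are from GENCODE on GRCh37, and upstream sequences from RefSeq on GRCh38.p14, matched to GRCh37. Alternatives were RLE factors, spike-in scaling, DESeq2 1.42.0, other filters, a replicate block, only the libraries compared, and leaving out each library. The fit was tested on counts simulated as independent libraries. That test cannot show whether the libraries of a group are technical or whether the scaling is right. Figures were drawn with matplotlib 3.10.9.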

Additional observations from a re-analysis of the deposited data

Results flagged for a closer look

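The effect of Vem on 4 of the 9 genes differed between cells without and with RSV, by the test of the difference itself (edgeR, Benjamini-Hochberg adjusted p), where 22.7% of all genes were called, 10.7% negative. The log2 difference was -0.51 ± 0.16 for HLA-C (adjusted p = 0.0283), -0.77 ± 0.13 for HLA-E (adjusted p = 0.000679), -0.58 ± 0.20 for HLA-F (adjusted p = 0.0482) and -0.54 ± 0.14 for TAPBP (adjusted p = 0.0106). HLA-E kept its call without each library in turn, TAPBP lost it without RSV+Vem replicate 1 (adjusted p = 0.0653), HLA-C lost it without any of 4 libraries and HLA-F without any of 5. With the replicate number as a block HLA-F was not called (adjusted p = 0.0526, edgeR), and under spike-in scaling none of the 4 was.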

How the results depend on the processing

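Scaling to the ERCC spike-ins moved the results most. It left 0 of the 9 genes called for Vem, TCDD and RSV against vehicle, RSV+Vem against Vem and against RSV, RSV+TCDD against TCDD and both interactions, 1 for RSV+Vem against vehicle, 2 for RSV+TCDD against RSV and 2 for RSV+TCDD against vehicle. Of 48 called values 2 stayed called. The median of all genes moved with them, to between -1.20 and 0.15 on the log2 scale. Relative to that median no value moved by more than 0.05, which 1 factor per library would give for any gene. The sign turned, as log2 fold changes after spike-in scaling, in Vem against vehicle for HLA-B (-0.53), HLA-C (-0.22), HLA-F (-0.20), TAP1 (-0.25) and TAP2 (-0.64). The sign also turned in TCDD against vehicle for HLA-C (-0.17), HLA-E (-0.12), B2M (-0.26), TAP1 (-0.37), TAP2 (-0.48), TAPBP (-0.44) and NLRC5 (-0.48). In RSV against vehicle it turned for HLA-F (-0.038) and TAPBP (-0.035). In RSV+Vem against RSV it turned for HLA-B (-0.50), TAP1 (-0.13), TAPBP (-0.36) and NLRC5 (-0.39). The sign also turned in RSV+Vem against vehicle for HLA-C (-0.19), B2M (-0.26), TAP1 (-0.33) and TAPBP (-0.39). In RSV+TCDD against TCDD it turned for HLA-B (-0.068), HLA-C (-0.42), HLA-E (-0.021), B2M (-0.46), TAP1 (-0.46) and TAPBP (-0.54). In RSV+TCDD against RSV it turned for HLA-B (-0.63), HLA-C (-0.99), HLA-E (-1.01), HLA-F (-0.57), B2M (-0.99), TAP1 (-0.63) and TAPBP (-0.94). The sign also turned in RSV+TCDD against vehicle for HLA-C (-0.59), HLA-E (-0.14), HLA-F (-0.61), B2M (-0.72), TAP1 (-0.83), TAPBP (-0.98) and NLRC5 (-0.29). In the RSV by Vem interaction it turned for HLA-B (0.029). In the RSV by TCDD interaction it turned for TAP1 (-0.27) and TAPBP (-0.51). Control sequences held 0.0389% of the counts in RSV+Vem replicate 1 and 0.0903% in replicate 2, so spike-in scaling also differed within a group. Why the spike-ins and TMM differ was not tested.

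Under the other settings no called value changed sign. Values near 0 that were not called did: with RLE factors, B2M in Vem against vehicle (0.0028), B2M in the RSV by Vem interaction (-0.021) and TAP1 in the RSV by Vem interaction (-0.014). With DESeq2, B2M in Vem against vehicle (0.0028), B2M in the RSV by Vem interaction (-0.021) and TAP1 in the RSV by Vem interaction (-0.014). With no filter on low counts, TAP2 in Vem against vehicle (-0.017) and NLRC5 in TCDD against vehicle (-0.0079). With at least 10 counts in every library, HLA-F in RSV+Vem against vehicle (0.015), B2M in the RSV by Vem interaction (-0.0071) and TAP1 in the RSV by Vem interaction (-0.00017). With only the libraries compared, HLA-F in RSV+Vem against vehicle (0.0011). The count of called genes moved by more than 1.5 times for RSV+TCDD against RSV, to 0 with RLE factors, 2 without a filter and 0 with only the libraries compared, and for RSV+Vem against RSV to 0 with only the libraries compared. The cause was not tested. Other counts differed from the main count by at most 1 gene, as DESeq2 did for RSV+Vem against Vem (5). With the replicate number as a block the counts were 6, 3 and 5 for Vem, TCDD and RSV against vehicle, 6, 2 and 8 for RSV+Vem against Vem, RSV and vehicle, and 4, 1 and 8 for RSV+TCDD against TCDD, RSV and vehicle. The block gave 3 for the RSV by Vem interaction and 0 for the RSV by TCDD interaction, and for RSV+TCDD against RSV its called gene was HLA-B in place of TAP1. The numbers did not pair the libraries in 1 way over all groups. Replicate differences correlated between -0.43 and 0.48 over 15 pairs of groups, 6 of them above 0.1 and 5 below -0.1. The 3 groups with RSV correlated with each other at 0.48, 0.40 and 0.34, and TCDD correlated with them at -0.43, -0.33 and -0.35. Whether libraries shared a preparation under other numbers was not tested.

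Leaving out each library in turn changed no sign among called values. Ranges crossed 0 for values not called, in Vem against vehicle for B2M (-0.054 to 0.035) and TAP2 (-0.10 to 0.14). In TCDD against vehicle they crossed it for TAP2 (-0.079 to 0.14) and NLRC5 (-0.31 to 0.50). In RSV against vehicle they crossed it for HLA-F (-0.068 to 0.27) and TAP1 (-0.10 to 0.029). In RSV+Vem against Vem they crossed it for HLA-C (-0.036 to 0.13) and TAP1 (-0.091 to 0.039). In RSV+Vem against RSV they crossed it for HLA-B (-0.12 to 0.16), HLA-C (-0.22 to 0.093), HLA-E (-0.14 to 0.038), HLA-F (-0.29 to 0.050), B2M (-0.10 to 0.076) and NLRC5 (-0.12 to 0.50). In RSV+Vem against vehicle they crossed it for HLA-F (-0.15 to 0.13). In RSV+TCDD against RSV they crossed it for HLA-C (-0.11 to 0.21), HLA-E (-0.055 to 0.12), B2M (-0.077 to 0.18) and NLRC5 (-0.35 to 0.28). In the RSV by Vem interaction they crossed it for HLA-B (-0.24 to 0.039), B2M (-0.081 to 0.095) and TAP1 (-0.055 to 0.079). In the RSV by TCDD interaction they crossed it for TAPBP (-0.018 to 0.036) and NLRC5 (-0.56 to 0.26). Counts of called genes ranged from 2 to 6 for Vem, 2 to 3 for TCDD and 4 to 5 for RSV against vehicle. They ranged from 4 to 5 for RSV+Vem against Vem, 0 to 1 against RSV and 6 to 8 against vehicle, and from 2 to 5, 0 to 2 and 6 to 8 for RSV+TCDD against TCDD, RSV and vehicle. For the interactions the ranges were 2 to 5 (Vem) and 0 to 0 (TCDD). A group left with 1 library was assumed to vary like the others.

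At the other settings 274 of 288 comparisons of called values kept their call, and without single libraries 157 of 208 did. NLRC5 was the shallowest member, from 55 to 172 counts.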

Other observations

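MHC class II genes, which melanoma cells can express and which present peptides to CD4 T cells, were read as a neighbouring list. Of 12 genes 5 passed the filter on low counts. RSV raised 4 of the 5, Vem 3 and TCDD 1, against 20.5%, 25.4% and 4.50% of all genes called higher. HLA-DMA, which helps to load class II molecules, was at 2.28 and 3.48 CPM with vehicle, 10.1 and 10.3 with RSV, and 5.91 and 4.95 with RSV+Vem. HLA-DPA1, a class II chain, was at 1.37 and 0.929 CPM with vehicle, 5.49 and 4.61 with Vem, and 3.01 and 3.89 with RSV. The RSV by Vem interaction was negative and called for these 2 genes, at -1.69 for HLA-DMA (adjusted p = 0.00101, edgeR) and -1.78 for HLA-DPA1 (adjusted p = 0.0023). The other 3 of the 5 tested were not called, and 10.7% of all genes were called negative. CD74, the invariant chain, rose by 1.29 with RSV (adjusted p = 0.0206). CIITA, the class II transactivator, stayed at or below 0.151 CPM in every library.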
